A study of Homo sapiens with 24 samples.

Results

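Hemidesmosomes are the junctions by which basal epithelial cells hold on to the basement membrane. Their core is integrin α6β4, a pair of the chains encoded by ITGA6 and ITGB4, which binds laminin-332 outside the cell and the plakins plectin (PLEC) and dystonin (DST) inside it. Collagen XVII (COL17A1) is the transmembrane collagen of the same junction. LAMA3 and LAMB3 encode the α3 and β3 chains of laminin-332. It is also bound by integrin α3β1, whose α chain is encoded by ITGA3, and the tetraspanin CD151 associates with these laminin-binding integrins. The loss of hemidesmosome or laminin-332 proteins is known for causing skin blistering, and ITGB4 is known in breast tumours as a marker of basal-like and of hybrid epithelial and mesenchymal cells.

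The 9 genes described here are ITGB4, ITGA6, ITGA3, CD151, LAMA3, LAMB3, COL17A1, PLEC and DST, 9 of the 59609 named genes in the count table. They were chosen by the counts of ITGB4, which were far higher with abemaciclib than with DMSO in MDA-MB-231 cells, together with the other genes of its junction. The comparison of abemaciclib with DMSO in that line therefore chose them and is given as a description without a test. The comparison of the combination with fulvestrant in the same line rests on 6 other libraries and carries the tests of abemaciclib for MDA-MB-231. Earlier results of these data were known at the choice, so that this comparison is not shown to be independent of it.

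Gene expression was profiled by 3′ RNA-seq in 2 established oestrogen receptor (ER)-negative breast cancer lines, both labelled wild-type: MDA-MB-231, grown in RPMI-1640, and MDA-MB-453, grown in DMEM. In each line cells received DMSO as the control, abemaciclib at 500 nM, fulvestrant at 5 nM, or abemaciclib with fulvestrant (the combination), for 5 days. Abemaciclib inhibits the kinases CDK4 and CDK6, and fulvestrant degrades the oestrogen receptor. Each of the 8 groups had 3 biological replicates from an experiment performed once, and the labels give no batch, so the line cannot be told apart from its medium.

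Library totals ran from 2873558 to 4158762 counts. The proliferation gene MKI67 was lower with the combination than with fulvestrant, with log2 fold changes of −1.16 in the former line and −7.84 in the latter (adjusted p = 1.1e-11 and 2.8e-31, edgeR). The line labels were checked on markers: VIM, CD44, CAV1 and AXL had at least 639 counts in every MDA-MB-231 library and 0 in every MDA-MB-453 library, and ZEB1 had 123 to 281 counts against 0 to 2. PIP had 0 counts in all 12 MDA-MB-231 libraries and at least 137 in each MDA-MB-453 library, where FOXA1, ERBB2, KRT8 and KRT18 were also high. ESR1, which encodes ER, had 0 counts in 21 of the 24 libraries and no more than 8 in any. Of the basal epithelial markers, TP63 had 0 counts in all 24 libraries, and KRT5 and KRT14 had 0 in all MDA-MB-231 libraries and up to 20 and 5 in MDA-MB-453. PTPRC of leukocytes did not exceed 1 count and PECAM1 of endothelium did not exceed 9. The collagen gene COL1A1 of fibroblasts had 6 to 27 counts per library in the former line and 54 to 219 in the latter.

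Of the 9 genes, MDA-MB-231 libraries held counts of 8, and MDA-MB-453 libraries of 7. LAMA3, the laminin α3 chain, had 0 counts in all 24 libraries. Levels are given in CPM, the count of a gene relative to the total of its library, and 3 counts over the 3 libraries of a group would be 0.255 to 0.300 CPM, which is the floor of detection used here. COL17A1 was at 0 throughout the 12 libraries of MDA-MB-453, with 4 to 31 counts in each MDA-MB-231 library. LAMB3 had 825 to 1061 counts per MDA-MB-231 library and only 3 to 13 per MDA-MB-453 library. Reads came from the 3′ ends of transcripts and were not divided by length, so that a level is compared here between groups and not between genes. In bulk samples, a larger share of cells with a transcript and more transcript per cell cannot be told apart.

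RefSeq promoter entries (build GRCh38.p14) were given for 5 of the 9 genes: ITGA6, LAMA3, LAMB3, COL17A1 and DST. The windows of 300 bases around annotated starts are shown for COL17A1 and for DST at a pair of its starts, since both genes rose with abemaciclib in MDA-MB-231, and for LAMB3 at one start, since it did not. The starts of DST and LAMB3 that are shown were picked after the search, for the strings they hold. Capitals mark matches on either strand to the letters of the cell cycle homology region (CHR, TTTGAA), AP-1 (TGANTCA), TEAD (GGAATG) and the GC box (GGGCGG). An E2F-like string (TTTNNCGC) was searched too.
COL17A1 start, chr10:104085831-104086130, minus strand: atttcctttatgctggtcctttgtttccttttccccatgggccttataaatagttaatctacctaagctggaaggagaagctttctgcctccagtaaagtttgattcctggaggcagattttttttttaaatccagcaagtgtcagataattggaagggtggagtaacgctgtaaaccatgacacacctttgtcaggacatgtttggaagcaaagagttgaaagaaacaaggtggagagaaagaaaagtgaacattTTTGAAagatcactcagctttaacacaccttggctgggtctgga
DST start 1, chr6:56642840-56643139, minus strand: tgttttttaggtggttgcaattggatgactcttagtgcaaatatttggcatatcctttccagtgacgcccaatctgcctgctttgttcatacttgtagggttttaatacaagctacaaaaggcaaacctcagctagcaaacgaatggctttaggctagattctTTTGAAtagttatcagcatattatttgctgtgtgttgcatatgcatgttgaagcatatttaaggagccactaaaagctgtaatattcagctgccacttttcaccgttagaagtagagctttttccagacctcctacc
DST start 3, chr6:56954781-56955080, minus strand: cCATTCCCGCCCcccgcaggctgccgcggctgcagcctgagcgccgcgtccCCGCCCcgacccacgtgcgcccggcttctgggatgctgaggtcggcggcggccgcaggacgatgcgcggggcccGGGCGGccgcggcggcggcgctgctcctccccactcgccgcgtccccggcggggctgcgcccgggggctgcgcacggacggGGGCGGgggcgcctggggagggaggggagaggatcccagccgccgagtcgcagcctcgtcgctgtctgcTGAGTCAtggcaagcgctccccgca
LAMB3 start 1, chr1:209651325-209651624, minus strand: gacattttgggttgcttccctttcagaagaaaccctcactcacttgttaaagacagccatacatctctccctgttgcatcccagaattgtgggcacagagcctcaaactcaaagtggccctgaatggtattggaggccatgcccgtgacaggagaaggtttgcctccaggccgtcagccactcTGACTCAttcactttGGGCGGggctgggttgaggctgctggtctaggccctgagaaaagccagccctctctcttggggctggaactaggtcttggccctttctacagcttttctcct

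The COL17A1 window and the window at DST start 1 each held 1 CHR string, which 15.2% of the 34943 promoters in the RefSeq table hold. The window at DST start 3 held 1 AP-1 string, 1 TEAD string and 4 GC boxes, the TEAD string and the neighbouring GC box sharing 1 base. The LAMB3 window held 1 AP-1 string and 1 GC box. AP-1, TEAD and GC box strings were present in 7.72%, 14.0% and 44.9% of all promoters. None of these windows, and none of the other 6 windows of the 5 genes, held the E2F-like string, which 6.85% of all promoters hold. DST start 2 held none of the strings, and LAMB3 starts 2 and 3 each held 1 GC box and no AP-1 string. The window of LAMA3, a gene with 0 counts in all 24 libraries, held 2 AP-1 strings and 1 GC box. ITGA6 starts 1 and 2 held 1 and 3 GC boxes and no AP-1 string. A string match is a description and not a binding site, and 3′ reads do not show which start was used.

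ITGB4, the β4 chain (chr17:75721328-75757818, plus strand, GENCODE v44 on GRCh38), went from near the limit of detection to a clear level in abemaciclib-treated MDA-MB-231 cells. In DMSO its libraries held 4, 0 and 12 counts, or 1.22, 0 and 3.64 CPM. With abemaciclib they held 162, 159 and 122 counts, or 46.0, 48.3 and 33.4 CPM. Every abemaciclib library was thus above every DMSO library (4.70 on the log2 scale with an SE of 0.37, or 26.1-fold). Of the 8 detected genes, 6 had all abemaciclib libraries above all DMSO libraries and 1, LAMB3, had them below, beside 21.7% and 22.4% of all genes, and nothing is read from this count, since the contrast chose the genes. The ITGB4 value rests on few DMSO counts, running from 4.12 without DMSO replicate 2, which held 0 counts, to 6.08 without DMSO replicate 3, which held 12.

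The same contrast on a background of fulvestrant was tested in 6 libraries outside the comparison of abemaciclib with DMSO. The estimate of the spread came from all 12 libraries of the line. Earlier results of these data were known when the genes were chosen, so that the test is not shown to be independent of the choice. ITGB4 had 2, 5 and 2 counts with fulvestrant (0.578, 1.42 and 0.585 CPM) and 144, 127 and 154 with the combination (38.8, 30.5 and 39.7 CPM). All combination libraries were far above all fulvestrant libraries. The increase was 5.33 on the log2 scale (SE 0.41, 95% interval 4.50 to 6.15; adjusted p = 4.7e-14), 40.1-fold, which was the fifth largest increase among 11314 genes tested. Leaving out single libraries moved it from 5.11 to 5.87.

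**Figure D1:**
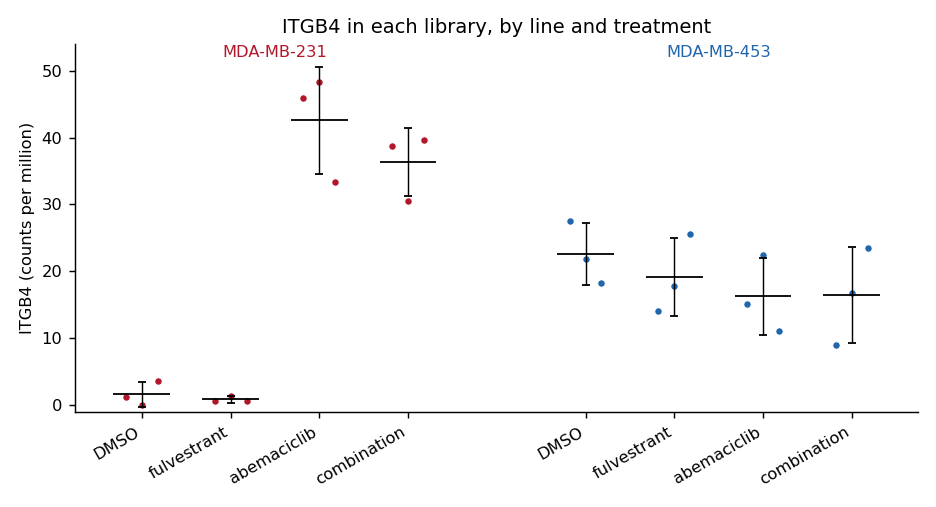
ITGB4 in CPM (linear axis) in each of the 24 libraries, as points, with the mean (bar) and SD (whisker, n = 3) of each group, in red for MDA-MB-231 and in blue for MDA-MB-453. In MDA-MB-231 the 6 libraries with abemaciclib lie between 30.5 and 48.3 CPM and the 6 without it between 0 and 3.64, whereas the MDA-MB-453 groups overlap between 9.05 and 27.5.

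Fulvestrant made no detectable difference to ITGB4 in MDA-MB-231. It was 1.62 ± 1.85 CPM (SD, n = 3) with DMSO and 0.861 ± 0.485 with fulvestrant, −0.86 on the log2 scale (SE 0.68, adjusted p = 0.834, edgeR), with a 95% interval from −2.23 to 0.51. The sign turned without DMSO replicate 3 (0.52). Between abemaciclib alone and the combination the difference was −0.23 (95% interval −0.72 to 0.26; adjusted p = 0.819). These comparisons reuse the DMSO and the abemaciclib libraries that served to choose the genes, so that neither is an independent test.

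In MDA-MB-453 cells ITGB4 was present without any drug and did not show this increase. Its libraries held 27.5, 21.9 and 18.3 CPM with DMSO and 15.2, 22.4 and 11.1 with abemaciclib. With fulvestrant they held 14.0, 17.9 and 25.6 CPM, and with the combination 9.05, 16.8 and 23.5. All 4 groups overlapped. The log2 fold change was −0.38 for abemaciclib against DMSO (95% interval −0.93 to 0.17; adjusted p = 0.295) and −0.14 for the combination against fulvestrant (−0.70 to 0.42; adjusted p = 0.739, edgeR), the latter turning sign without fulvestrant replicate 3 (0.12) or combination replicate 1 (0.13).

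Across the 8 groups, mean ITGB4 was highest in MDA-MB-231 with abemaciclib (42.6 CPM) and with the combination (36.3), followed by MDA-MB-453 with DMSO (22.5), fulvestrant (19.1), the combination (16.4) and abemaciclib (16.2), and lowest in MDA-MB-231 with DMSO (1.62) and fulvestrant (0.861). No test between neighbours in this order within a line passed the threshold. The lowest combination-treated MDA-MB-231 library (30.5) was above the highest DMSO-treated MDA-MB-453 library (27.5), a gap that was not tested. Among fulvestrant-treated cells the order of the lines was the opposite, with ITGB4 higher in MDA-MB-453 by 4.40 on the log2 scale (SE 0.49, adjusted p = 5.8e-11).

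GALK1, a galactokinase gene, runs on the opposite strand with a span (chr17:75751594-75765236) that covers the 3′ end of ITGB4, although the annotation gives them no shared exon bases. Whether counting used the strand is not stated. In MDA-MB-231 GALK1 held 52, 40 and 31 counts with fulvestrant and 90, 80 and 71 with the combination (log2 fold change 0.79, adjusted p = 0.00914), and in the other line it fell by 0.67 (adjusted p = 0.0145). The change of GALK1 in MDA-MB-231 was far smaller than that of ITGB4, and its part in the ITGB4 counts was not tested.

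Of the 8 genes tested in MDA-MB-231, 6 rose and 1 fell with the combination against fulvestrant, beside 36.1% of all genes called (17.6% higher, 18.5% lower). The median of the 8 log2 fold changes was 1.16, and that of all genes was −0.00. ITGB4 was followed by ITGA3, DST, COL17A1, PLEC and CD151. ITGA6 was not called and LAMB3 was lower. In all 8 genes the libraries of the compared groups did not overlap, 7 higher and 1 lower, beside 23.1% and 22.7% of all genes. Mitochondrial transcripts took 8.69% to 9.24% of counts in MDA-MB-231 libraries without abemaciclib and 11.1% to 14.0% in those with it; with mitochondrial genes left out, the calls were again 6 higher and 1 lower.

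ITGA3 (chr17:50055968-50090481, plus strand), the α chain of the other laminin-332 receptor, changed next most. It was at 57.8, 113 and 95.3 CPM with fulvestrant and 341, 290 and 351 CPM with the combination. Every combination library was above every fulvestrant library. It rose 3.66-fold, by 1.87 on the log2 scale (SE 0.13, adjusted p = 4.7e-15). With abemaciclib against DMSO it was 1.71, from 98.4 ± 1.81 to 321 ± 17.2 CPM (SD, n = 3).

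In ITGA6 (chr2:172427354-172506459, plus strand), the partner chain of ITGB4, no such difference was seen. It was at 60.9, 61.7 and 63.1 CPM with fulvestrant and 67.1, 64.9 and 68.8 with the combination. The libraries did not overlap, but the log2 fold change was 0.10 (95% interval −0.17 to 0.37; adjusted p = 0.592, edgeR), which leaves out an increase of the size seen in ITGA3. Between DMSO and abemaciclib it was 57.7 ± 3.32 and 61.4 ± 5.62 CPM (SD, n = 3).

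CD151 (chr11:832887-839831, plus strand) was at 170, 184 and 213 CPM with fulvestrant and 320, 313 and 320 CPM with the combination. The combination libraries lay close together and above the fulvestrant libraries, a rise of 0.74 on the log2 scale (SE 0.10, adjusted p = 9.8e-08). Of its 3894 exon bases, 257 are shared with POLR2L, an RNA polymerase subunit gene on the opposite strand, 111 of them among the last 500. POLR2L had 1447 to 3207 counts per library, and its log2 fold change was 0.18 in MDA-MB-231 (adjusted p = 0.139, edgeR) and −0.33 in the other line (adjusted p = 0.00112), where CD151 changed the other way.

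The plakins PLEC and DST, which tie the junction to intermediate filaments, both rose. PLEC (chromosome 8, position 143915153 to 143976734, minus strand) was at 172, 157 and 182 CPM with fulvestrant and 337, 311 and 311 with the combination (log2 fold change 0.90, SE 0.10, adjusted p = 5.3e-10). DST (chr6:56457987-56954830, minus strand), whose start windows are printed above, was at 128, 82.4 and 97.6 CPM with fulvestrant and 234, 319 and 277 with the combination (log2 fold change 1.42, SE 0.13, adjusted p = 5.7e-12). In neither gene did the groups overlap. DST was also at 213 ± 31.8 CPM with abemaciclib alone (SD, n = 3), against 277 ± 42.6 with the combination, a difference of 0.37 (adjusted p = 0.251, edgeR) with overlapping libraries.

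COL17A1 (chr10:104031286-104085880, minus strand) rested on few counts. It had 5, 7 and 9 counts with fulvestrant and 19, 31 and 15 with the combination. The lowest combination library was above the highest fulvestrant library, and the gene rose by 1.41 on the log2 scale (SE 0.55, adjusted p = 0.0397). The call was lost without fulvestrant replicate 1 (1.22) or 2 (1.40), without combination replicate 1 (1.46) or 2 (1.13), and with no filter on low counts (1.44, adjusted p = 0.0546). It had 4, 8 and 10 counts with DMSO and 16, 21 and 20 with abemaciclib, again without overlap.

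LAMB3 (chr1:209614870-209652425, minus strand), the only laminin-332 chain among the 9 genes with counts, did not rise. It was at 289, 298 and 280 CPM with fulvestrant and 222, 245 and 213 CPM with the combination. All combination libraries were below all fulvestrant libraries, and LAMB3 fell by 0.36 on the log2 scale (SE 0.09, adjusted p = 0.00195). It was at 312, 310 and 302 CPM with DMSO and 261, 292 and 274 with abemaciclib, a difference of −0.16.

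**Figure D2:**
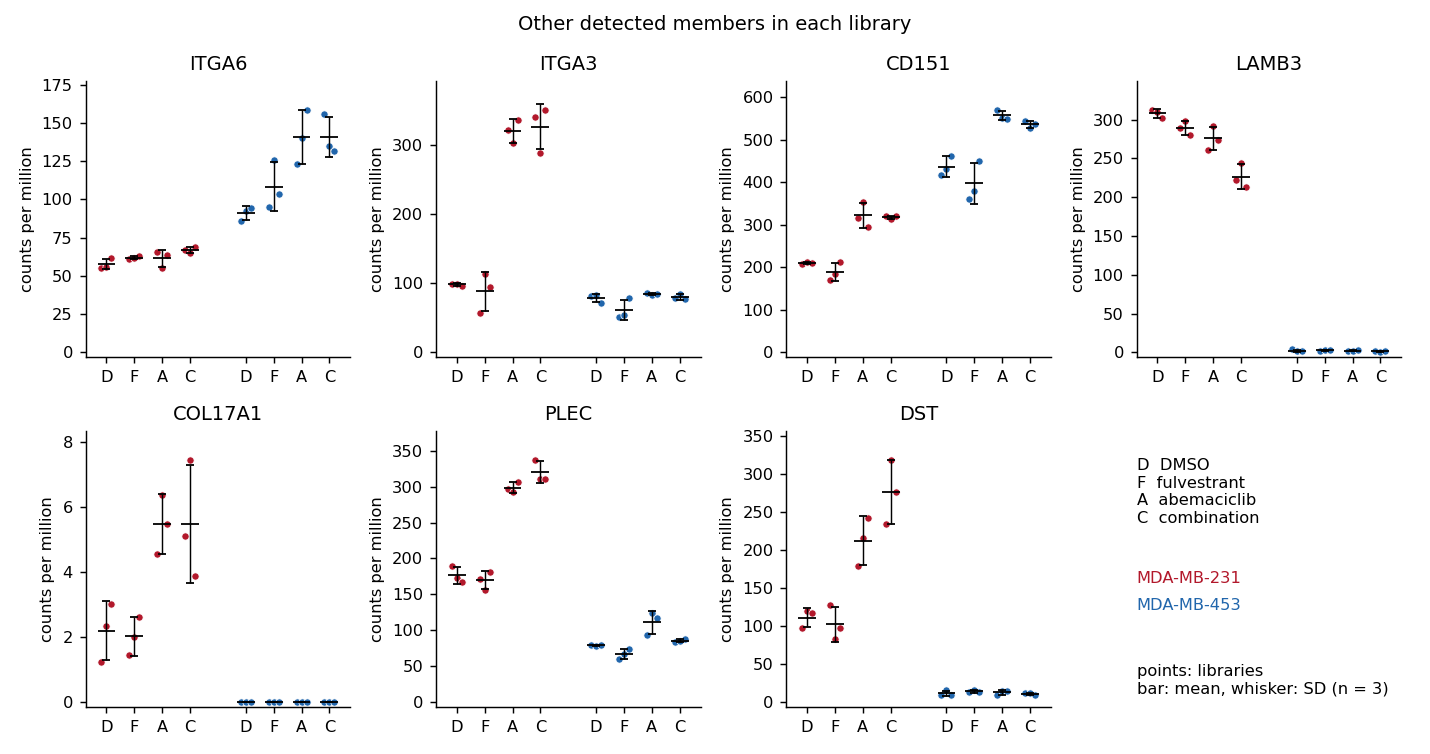
Levels in CPM (linear axes) of the other 7 detected genes in each library, as points, with the mean and SD (n = 3) of each group in MDA-MB-231 (red) and MDA-MB-453 (blue). In MDA-MB-231 ITGA3, CD151, PLEC, DST and COL17A1 are higher in the groups with abemaciclib, ITGA6 stays between 55.0 and 68.8 CPM and LAMB3 is lowest with the combination.

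None of the 8 genes was called for fulvestrant against DMSO in MDA-MB-231, where edgeR called 0 genes overall (0% called; 799 at an unadjusted p below 0.05). DESeq2 also called 0 of the 8 genes. Without fulvestrant replicate 1, in which ITGA3 was lowest, edgeR called 205 genes. Adding fulvestrant to abemaciclib gave 0 calls among the 8, beside 0.0265% of all genes, 3 in number, while 1148 genes had an unadjusted p below 0.05. DESeq2 called 59 genes in that comparison, LAMB3 among them (−0.28, adjusted p = 0.0474). Both comparisons share libraries with the contrast that chose the genes.

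In MDA-MB-453, with abemaciclib against DMSO, 3 of the 7 tested rose, ITGA6, PLEC and CD151, beside 36% of all genes called (16.6% higher). With the combination against fulvestrant 4 of 7 rose, the same 3 and ITGA3, beside 36.6% of all genes (17.2% higher). The median of the 7 log2 fold changes was 0.24 and 0.40 in these comparisons, and that of all genes −0.00 and 0.01. Mitochondrial transcripts took 13.3% to 16.0% of counts without abemaciclib and 20.8% to 25.5% with it, and COL1A1 had 39.4 and 47.7 CPM with DMSO and fulvestrant against 18.4 and 24.1 with abemaciclib and the combination; their part in these results was not tested, beyond that the 4 calls held with mitochondrial genes left out.

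ITGA6, not called in MDA-MB-231, had the largest called change among these genes with abemaciclib against DMSO here, but not with the combination against fulvestrant. It was at 85.9, 92.5 and 94.4 CPM with DMSO and 123, 140 and 158 with abemaciclib, without overlap (log2 fold change 0.71, SE 0.12, adjusted p = 4.4e-06). With fulvestrant it was at 95.0, 126 and 104 CPM and with the combination at 156, 135 and 132 (0.43, SE 0.12, adjusted p = 0.00362).

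CD151 was at 416, 432 and 463 CPM with DMSO and 570, 552 and 550 with abemaciclib (0.43, SE 0.08, adjusted p = 5.6e-05). It was at 361, 380 and 451 CPM with fulvestrant and 544, 528 and 538 with the combination (0.48, SE 0.09, adjusted p = 9.9e-06). The tetraspanin gene was thus higher with abemaciclib in each pair of groups and in both lines.

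PLEC was at 79.2, 78.5 and 79.5 CPM with DMSO and 93.4, 124 and 117 with abemaciclib (0.58, SE 0.12, adjusted p = 2.1e-04). It was at 59.7, 66.7 and 74.6 with fulvestrant and 83.9, 84.9 and 87.3 with the combination (0.40, SE 0.13, adjusted p = 0.0114). The latter call was lost without fulvestrant replicate 1 (0.32). PLEC was also lower with the combination than with abemaciclib alone, by −0.47 (adjusted p = 0.0253), the 1 call among 7 genes beside 2.46% of all genes, and this call was lost in 5 of the 6 fits that left out a library.

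ITGA3 in MDA-MB-453 was at 51.7, 54.4 and 78.5 CPM with fulvestrant and 79.0, 85.2 and 77.6 with the combination, so that the groups overlapped (0.44, SE 0.14, adjusted p = 0.00785). The call was lost without fulvestrant replicate 1 (0.33) or 2 (0.36). With abemaciclib against DMSO the difference was 0.19 (95% interval −0.08 to 0.45; adjusted p = 0.280, edgeR). Fulvestrant against DMSO gave 0 calls among the 7 genes, beside 1.41% of all genes; edgeR gave all 7 an adjusted p of 0.111 or more and DESeq2 called none of the 4 it tested. Without fulvestrant replicate 3, ITGA3 (−0.63) and CD151 (−0.30) passed as lower.

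DST had 30 to 61 counts and LAMB3 had 3 to 13 in the MDA-MB-453 libraries. For the combination against fulvestrant DST differed by −0.33 (95% interval −0.91 to 0.26) and LAMB3 by −0.79 (−2.16 to 0.57), with adjusted p-values of 0.407 and 0.386 (edgeR). Changes within these intervals were not detectable at this depth.

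**Figure D3:**
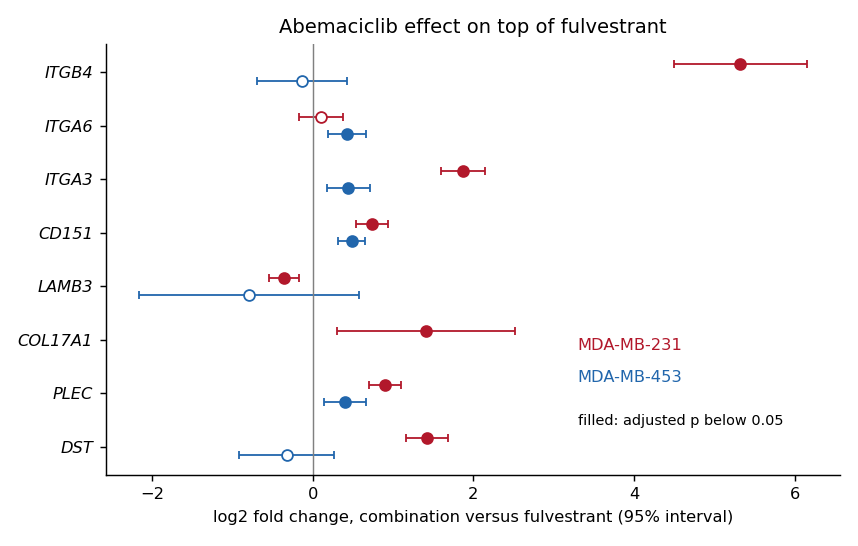
Log2 fold change of the combination against fulvestrant for each tested gene, with its 95% interval, in MDA-MB-231 (red) and MDA-MB-453 (blue); filled points have an adjusted p below 0.05. ITGB4 stands at 5.33 (red) and −0.14 (blue), while CD151 is filled at 0.74 and 0.48.

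The difference between the lines was tested directly, as the MDA-MB-453 effect less the MDA-MB-231 effect. The genes were chosen by the rise of ITGB4 in MDA-MB-231, with earlier results known. This test is therefore not shown to be independent of the choice. Of 7 genes 4 differed, all with the smaller effect in MDA-MB-453, beside 18.1% of all genes called (11.3% lower). The differences were −5.46 for ITGB4 (SE 0.58, adjusted p = 2.5e-10), −1.75 for DST (SE 0.28, adjusted p = 3.2e-06), −1.42 for ITGA3 (SE 0.20, adjusted p = 4.8e-07) and −0.50 for PLEC (SE 0.16, adjusted p = 0.0188). The PLEC call was lost without MDA-MB-231 fulvestrant replicate 2 (−0.44). ITGA6 (0.33, 95% interval −0.03 to 0.68), CD151 (−0.25, −0.52 to 0.01) and LAMB3 (−0.44, −1.29 to 0.42) were not called, although CD151 passed when mitochondrial genes were left out (−0.35, adjusted p = 0.0464, edgeR). That setting moved the median difference of all genes from −0.05 to −0.15, so that its values lie lower throughout.

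Levels under fulvestrant, where neither line had seen abemaciclib, separated the lines for every gene that was tested, beside 68.5% of all genes. ITGB4 (4.40), CD151 (1.06) and ITGA6 (0.80) were higher in MDA-MB-453 on the log2 scale, and LAMB3 (−6.75), DST (−2.86), PLEC (−1.35) and ITGA3 (−0.54) were lower. The ITGA3 libraries of the lines overlapped. COL17A1 had 21 counts in the fulvestrant-treated MDA-MB-231 libraries and 0 in MDA-MB-453, so that the latter was lower by at least 7.30-fold, taking 3 counts per group as the floor.

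Over the 12 MDA-MB-231 libraries the genes whose log2(CPM + 1) values ran most like those of ITGB4 were CAPN2 (Pearson r 0.988), MVP (0.986), MGST3 (0.982), MAN2A1 (0.981) and S100A11 (0.981), of 9607 genes with at least 5 CPM on average. CAPN2, a calpain protease subunit, was at 115 and 112 CPM with DMSO and fulvestrant and 217 and 206 with abemaciclib and the combination. MVP, the major vault protein, was at 21.0, 23.6, 61.8 and 61.6 CPM in the same order. Among the other members r was 0.956 for ITGA3, 0.945 for PLEC, 0.942 for CD151, 0.876 for DST, 0.870 for COL17A1, 0.490 for ITGA6 and −0.694 for LAMB3. These values describe libraries that fall into treatment groups and share the contrast used to choose the genes.

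Related genes were counted in lists around the junction. Each count stands beside the 17.6% of all genes called higher and 18.5% called lower in MDA-MB-231. In MDA-MB-453, 36.6% of all genes were called in either direction and 17.2% were called higher. Of 10 other laminin chains 5 were tested in MDA-MB-231 and 3 rose with the combination against fulvestrant, with a list median of 0.85. LAMA5 went from 10.2 ± 3.99 to 64.9 ± 11.2 CPM (SD, n = 3; 2.65, adjusted p = 3.0e-12) and LAMB2, the β2 chain, from 22.4 ± 3.54 to 60.5 ± 5.26 (1.42, adjusted p = 1.3e-08). In MDA-MB-453 3 of 4 rose, LAMB2 by 1.35 and LAMA5 by 1.08 on the log2 scale (adjusted p = 1.1e-13 and 1.4e-04, edgeR). Laminin chains outside laminin-332 were thus called in both lines, whereas LAMB3 was lower in one and hardly counted in the other.

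Of 19 other integrin chains 10 were tested in MDA-MB-231 and 2 rose, ITGA2 (1.51) and ITGB1 (1.44), the β1 chain that pairs with both ITGA2 and ITGA3. ITGB1 had 31.8 ± 9.98 CPM with fulvestrant and 86.7 ± 15.6 with the combination (SD, n = 3). The other 8 were not called, and the list median was 0.02, so that the share that rose was near the 17.6% of all genes. In MDA-MB-453 1 of 7 rose, the αV chain ITGAV (1.04). ITGB1 was not called there for the combination against fulvestrant (0.22, adjusted p = 0.510, edgeR). It was called higher in that line for abemaciclib against DMSO (0.91, adjusted p = 0.00243, edgeR).

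Tetraspanins other than CD151 rose in 5 of 10 genes tested in MDA-MB-231 (median 0.57), among them CD82 (1.62) and CD9 (1.13). In MDA-MB-453 6 of 12 rose, TSPAN1 (1.48) and CD63 (1.13) leading, and 2 fell, TSPAN3 (−3.63) and CD82 (−0.49). CD82 was therefore higher in one line and lower in the other.

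The desmosome, the cell-to-cell junction of epithelia, showed 4 of 7 tested genes higher in MDA-MB-231 (median 0.83) and none lower, beside 17.6% and 18.5% of all genes. Desmoplakin DSP, which is also a plakin, went from 51.4 ± 12.6 to 143 ± 17.6 CPM (SD, n = 3; 1.46, adjusted p = 7.2e-11), and plakoglobin JUP rose by 1.20. In MDA-MB-453 JUP (0.48) and PERP (0.32) rose and DSP (−0.87) and PKP1 fell, of 7 tested. PKP1, with 0 counts in the combination libraries, is outside the naming rule. Among the other plakins the cross-linker MACF1 was higher in both lines (0.54 and 1.19), as 1 of 2 that rose of 3 tested in MDA-MB-231 and the 1 that rose of 5 in MDA-MB-453.

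Of 7 basal keratins 0 had enough counts to be tested in MDA-MB-231, whereas in the other line 1 of 2 tested fell. Of 13 basement membrane genes 7 were tested in MDA-MB-231 and 2 rose, the collagen XVIII gene COL18A1 (1.19) and the perlecan gene HSPG2 (0.92), and in MDA-MB-453 2 of 4 rose, COL4A5 (1.05) and the laminin receptor BCAM (0.77). Among proteases that can process laminin-332, PLAT (0.93) and MMP14 (0.67) rose of 4 tested in MDA-MB-231, and the 1 tested in the other line was not called.

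Receptors and adaptors linked to α6β4 rose in 5 of 13 tested genes in MDA-MB-231 (median 0.28), NFAT5 (1.19) and ERBB2 (0.58) being named. In MDA-MB-453 ERBB3 (0.59) and ERBB2 (0.49) were among 3 that rose and IRS1 fell (−1.26), of 9. Focal adhesion proteins, which join other integrins to actin, gave 4 higher and 1 lower of 16 in MDA-MB-231, FERMT1 (0.60), TLN1 (0.35) and FERMT2 (−0.40) being named, and 4 higher and 5 lower of 14 in MDA-MB-453, with PXN (1.16), TNS3 (0.97), FERMT2 (−0.99) and ACTN1 (−0.94). The medians of this list, 0.02 and 0.15, were nearer to those of all genes than the medians of the laminin chains were.

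**Figure D4:**
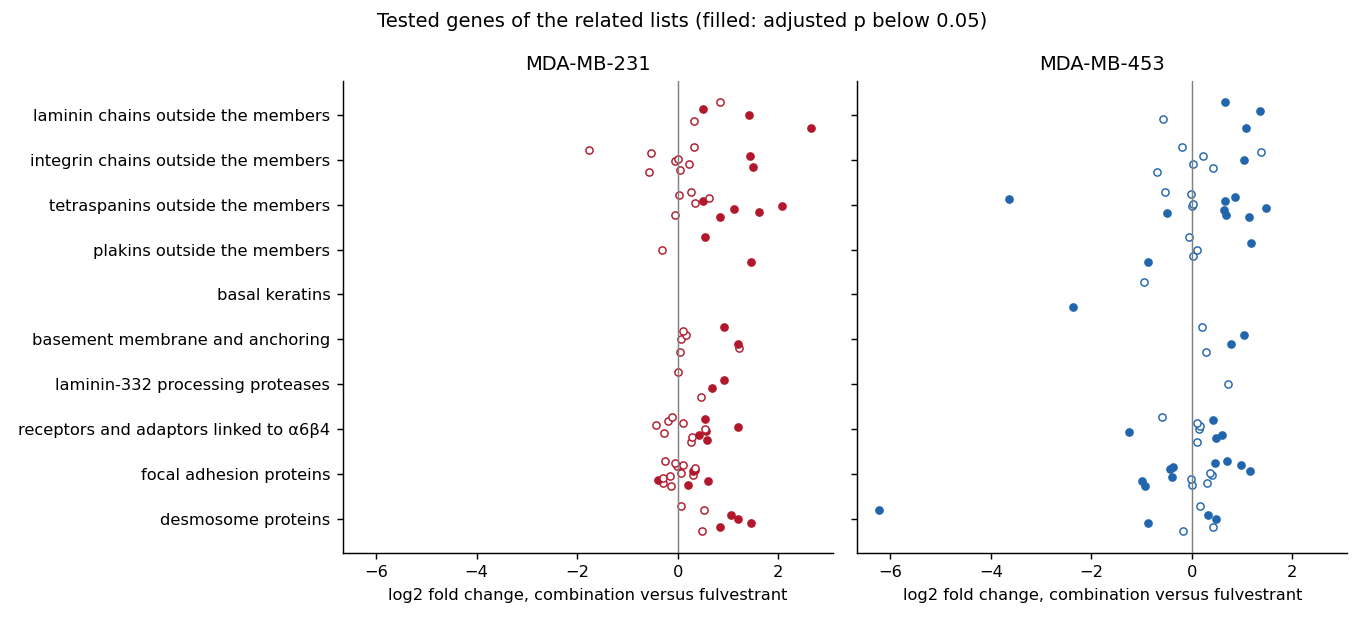
Log2 fold change of the combination against fulvestrant for each tested gene of the 10 lists around the junction, in MDA-MB-231 (red, left) and MDA-MB-453 (blue, right); each point is a gene and filled points have an adjusted p below 0.05. In MDA-MB-231 the laminin, tetraspanin and desmosome lists hold 3, 5 and 4 filled points to the right of 0 and none to the left.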

How the data were processed

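The 2 ER-negative breast cancer lines were profiled by QuantSeq 3′ RNA-seq, with 3 libraries in each of 8 groups. The authors deposited raw gene counts: reads were trimmed with BBDuk, aligned to hg38 with STAR and counted with featureCounts on GENCODE genes. The strand setting, the handling of reads with several alignments and the removal of duplicates are not given in the sources used here. There was 1 line of the table that named no gene, with 0 counts.

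The 9 genes and the lists of related genes were chosen with earlier results of these data known. Counts were fitted with edgeR 4.0.16 (R 4.3.3; filterByExpr, TMM, quasi-likelihood test), in 12 libraries per line and in all 24 for comparisons between lines, with 11314, 11080 and 12750 genes tested. P-values were adjusted by Benjamini–Hochberg over all genes tested, and a gene was called below 0.05. Contrasts that chose the genes, or that join them (combination against DMSO), carry no p-value. In MDA-MB-231, fulvestrant against DMSO and the combination against abemaciclib were tested although each shares libraries with the contrast that chose the genes. Since the replicates came from a single experiment, p-values measure the spread between these libraries. Replicate pairs differed by more than counting noise (chi-square per degree of freedom 2.64 to 8.65), and the biological coefficient of variation was 13.4% and 12.6%. Pairs holding MDA-MB-231 fulvestrant replicate 1 gave 7.81 and 8.65. Those holding MDA-MB-453 fulvestrant replicate 3 gave 7.31 and 8.39, and those holding MDA-MB-453 abemaciclib replicate 1 gave 7.67 and 8.18. All other pairs were at 6.05 or below.

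Named genes were the 9 genes, up to 2 called higher and 2 called lower per list and line by the largest change with at least 5 CPM on average, the 5 genes most correlated with ITGB4, genes sharing exon bases with the 9 genes, and MKI67. GALK1, whose span overlaps that of ITGB4, was added after its values were seen. Some items are not reported here. Floors of 3 counts and intervals cover counting or model error only. Alternatives were DESeq2 1.42.0, its size factors, no filter or a minimum mean of 1 CPM, mitochondrial genes left out, a replicate block, only the groups compared, and each library left out in turn. Scripts were tested on simulated data.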

Additional observations from a re-analysis of the deposited data

Results flagged for a closer look

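The response to the combination against fulvestrant differed between the lines by a test of the difference itself (interaction term in the 24-library edgeR fit) for 4 genes. In MDA-MB-453 minus MDA-MB-231 the differences on the log2 scale were −5.46 for ITGB4, −1.75 for DST, −1.42 for ITGA3 and −0.50 for PLEC. ITGB4, ITGA3 and DST were called in each of the 12 fits that left out 1 library, and PLEC in 11 of them. Since the rise of ITGB4 in MDA-MB-231 chose the genes, the test is not shown to be independent of the choice. The lines also differed in medium and in the level of each gene before abemaciclib, and these cannot be told apart from the line.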

How the results depend on the processing

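The increase of ITGB4 with the combination against fulvestrant in MDA-MB-231 ran from 5.32 to 5.39 (log2) over the 7 alternatives that kept all libraries and was called in each. The count of genes called moved by over 1.5 times in comparisons with few calls, and the cause was not tested. For the combination against abemaciclib in MDA-MB-231 it was 59 with DESeq2, 5 with its size factors, 49 with no filter, 9 without mitochondrial genes and 30 with only the groups compared, and 0 to 96 without single libraries. For fulvestrant against DMSO in MDA-MB-231 it was 14 with no filter and 0 to 205 without single libraries. In MDA-MB-453 the fulvestrant count was 290 with DESeq2, 269 with no filter and 5 to 786 without single libraries, and that of the combination against abemaciclib 83 to 518.

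Values that turned sign without single libraries were not called in the full fits. For fulvestrant against DMSO in MDA-MB-231 the log2 values ran from −1.44 to 0.52 for ITGB4, −0.36 to 0.093 for ITGA3, −0.39 to 0.19 for COL17A1, −0.10 to 0.0072 for PLEC and −0.30 to 0.023 for DST. For the combination against abemaciclib there they ran from −0.039 to 0.11 for ITGA3, −0.089 to 0.044 for CD151 and −0.28 to 0.19 for COL17A1. In MDA-MB-453 LAMB3 ran from −0.49 to 0.31 for abemaciclib and −0.13 to 0.63 for fulvestrant, each against DMSO. ITGB4 ran there from −0.49 to 0.13 for the combination against fulvestrant and, against abemaciclib, from −0.40 to 0.26, with ITGA6 from −0.21 to 0.019.

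The replicate numbers did not pair the libraries: of 18 same-numbered pairs in each line none had deviations correlated above 0.1. With a replicate block the ITGB4 increase was 5.32. The block changed no call of a member, and COL17A1 for the combination against abemaciclib in MDA-MB-231 turned from 0.00070 to −0.00040. Few counts limit COL17A1, LAMA3 and, in MDA-MB-453, LAMB3 and DST.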
